A study of Mus musculus with 12 samples.

Results

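The nuclear lamina genes are 9 mouse genes, Lmna, Lmnb1, Lmnb2, Lbr, Emd, Tmpo, Sun1, Sun2 and Banf1, each taken as the row of its Entrez gene in a table of 27179 genes. All 9 were found, and all 9 passed the filter on low counts that left 13195 genes to test. The study followed male C57BL/6 splenic B cells (6 to 12 weeks old, C57BL/6 Pep3b background in the methods, no transgene named for these libraries) from the resting state to plasmablasts. RNA-Seq was made from 12 libraries, 2 biological replicates at each of 6 stages. Naive B cells were sorted from splenocytes as TCRβ-B220+IgM+IgDhi cells (not all markers of the gate are listed). All other stages came from B cells isolated by negative selection and cultured with 25 µg/ml lipopolysaccharide (LPS). The labels name CellTrace Violet (CTV), a dye that dilutes at each division, for the cultured cells, and the methods state it for the cultures up to 33 h. The 3 h, 10 h and 33 h cells were sorted as TCRβ-CD69+ cells with the highest CTV and so had not divided, and the 33 h cells were close to their first division. On day 4 the expanded B cells (CD22+CD138-) and the plasmablasts (CD22-CD138+) were sorted from cultures set up at a lower cell density. Whether the replicates of different stages share a mouse is not stated in the sources used here.

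The nuclear lamina is a meshwork of intermediate filament proteins, the lamins, on the inner face of the nuclear envelope. Lmna encodes lamins A and C, which are linked to nuclear stiffness and are usually low in lymphocytes, whereas Lmnb1 and Lmnb2 encode the B-type lamins. Lbr, Emd and Tmpo encode inner nuclear membrane proteins (the lamin B receptor, emerin and the LAP2 proteins) that tie chromatin to the lamina. Sun1 and Sun2 span the inner membrane and reach, through nesprins, the cytoskeleton, and Banf1 encodes BAF, a small DNA-binding protein that bridges chromatin to LEM-domain proteins such as emerin and LAP2. The envelope is taken apart at each mitosis and built again in the daughter cells.

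The cell type markers matched the labels. The 6 B cell markers were detected in every library, and the 5 plasmablast markers summed to 10570 and 10400 RPKM in plasmablasts against at most 1043 in any other library. RPKM are reads per kilobase of exon, relative to the library size as scaled by TMM. The naive libraries also held myeloid and erythroid RNA. Their 7 myeloid markers summed to 396 and 159 RPKM with none at 0, against 0.200 to 9.52 RPKM in the other 10 libraries, where 3 to 5 of the 7 were at 0. Of these markers, Itgam and Adgre1 were also detected later. Itgam averaged 1.65 RPKM (naive), 0.17 (3 h), 0.48 (10 h), 3.41 (33 h), 5.05 (expanded) and 0.011 (plasmablasts). Adgre1 averaged 3.66, 1.06, 1.98, 2.68, 4.18 and 0.10 RPKM in this order. Both were thus highest in expanded cells and lowest in plasmablasts. Lmnb1, Lmnb2, Lbr, Emd, Tmpo and Banf1 were also higher on average in expanded cells than in plasmablasts, and Lmna, Sun1 and Sun2 were lower. The part of this relation in the results of those genes was not tested. In the naive libraries the 3 erythroid markers summed to 177 and 133 RPKM against at most 1.49 later. The 6 T cell markers summed to 30.4 and 33.1 RPKM against at most 17.3 later, of which Lck alone made 28.7 and 31.5, while Cd3d, in cells gated as TCRβ-, was at 0.433 and 0.483. The 6 stromal and endothelial markers summed to 84.5 and 95.3 RPKM against at most 31.3, of which Pecam1 alone made 84.1 and 94.8, while the collagen genes Col1a1, Col1a2 and Col3a1 had 0 to 2 counts. Lck and Pecam1 were also detected in every later library. Total counts ran from 23026619 to 60585587. Mitochondrial genes, which were removed before the tests, took 10.3% and 11.5% of counts in the naive libraries, 5.68% and 8.47% at 3 h and 4.94% to 6.89% in the other 8 libraries. They thus fell along with the naive to 3 h changes given next and differed between the 3 h replicates, and their part in those results was not tested. The log2 ratio of the 2 replicates had its widest spread at 3 h (SD 0.53 across genes) and its narrowest in expanded cells (SD 0.30).

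All 9 genes differed among the 6 stages in edgeR's quasi-likelihood F-test (adjusted p from 4.31e-11 for Sun2 to 0.000577 for Lbr), beside 96.5% of all genes tested. A gene was called differentially expressed (DE) at a transition where its fold change was significantly over 1.5 by glmTreat. From naive to 3 h, 2 of 9 rose (Lmna and Lmnb2; background 20.9% of genes tested) and 0 fell (background 24.2%). From 3 h to 10 h, 1 rose (Banf1; background 17.2%) and 3 fell (Lmna, Sun1 and Sun2; background 13.3%). From 10 h to 33 h, 2 rose (Lmnb1 and Tmpo; background 10.0%) and 0 fell (background 4.41%). From 33 h to expanded cells 0 rose and 0 fell, beside 6.87% and 3.56% of genes tested. DESeq2's Wald test also called 0 there, and by the F-test 3 of the 9 had an unadjusted p under 0.05. From expanded cells to plasmablasts, 0 rose (background 14.0%) and 1 fell (Lmnb1; background 12.1%). Lbr and Emd were not DE at any of the 5 transitions.

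By the F-test, which asks for a change of any size, 8 of 9 rose and 0 fell from naive to 3 h, beside 34.5% and 36.2% of all genes tested. From 3 h to 10 h 3 rose and 4 fell (background 32.0% and 30.0%), and from 10 h to 33 h 3 rose and 3 fell (background 23.1% and 22.2%). From 33 h to expanded 0 rose and 3 fell (background 18.5% and 20.8%), and from expanded to plasmablast 3 rose and 4 fell (background 27.2% and 29.6%). The median log2 fold change of the 9 genes from naive to 3 h was 0.61, beside -0.03 over all genes tested. At the other transitions it was -0.02, 0.15, -0.19 and -0.27, beside 0.02, -0.02, -0.02 and -0.04 over all genes. In bulk RNA, fewer cells that express a gene and less RNA of it per cell cannot be told apart.

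**Figure D1:**
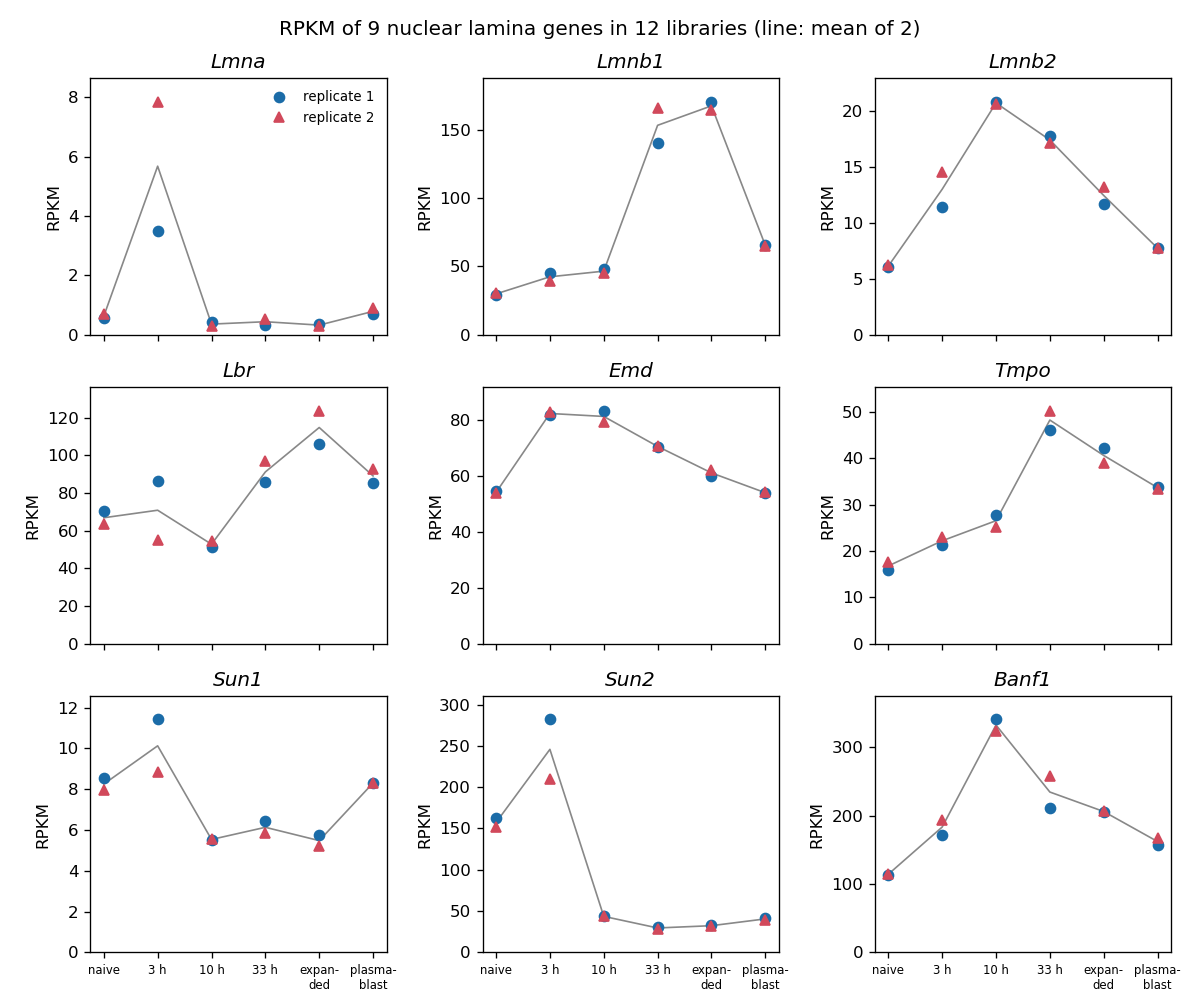
RPKM (linear axis from 0) of each of the 9 genes at the 6 stages, with a circle for replicate 1, a triangle for replicate 2 and a line through the means of 2. Lmna, Emd, Sun1 and Sun2 have their highest mean at 3 h, Banf1 and Lmnb2 at 10 h, Tmpo at 33 h, and Lmnb1 and Lbr in expanded cells.

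Lmna (Entrez 16905; chr3:88481148-88509932, mm10) had a single peak, at 3 h. Its level was 0.555 and 0.693 RPKM (naive), 3.50 and 7.85 (3 h), 0.433 and 0.279 (10 h), 0.339 and 0.534 (33 h), 0.345 and 0.299 (expanded) and 0.683 and 0.888 (plasmablasts). Both 3 h libraries lay above all 10 others, although they differed from each other more than the replicates of any other stage did in RPKM. The counts behind these values were 214 and 813 at 3 h and 34 to 86 in the other libraries, so Lmna is the least precisely measured of the 9. Lmna rose from naive to 3 h by a log2 fold change of 3.21 (SE 0.36, adjusted p 1.96e-05) and fell by 3.99 from 3 h to 10 h (SE 0.37, adjusted p 7.45e-06). Over 24 alternative settings, all of which called both, the rise was 2.47 (without 3 h replicate 2) to 3.67 (without 3 h replicate 1) on the log2 scale, and the difference from 3 h to 10 h was -3.27 (without 3 h replicate 2) to -4.44 (without 3 h replicate 1). Where Lmna peaked, at 3 h, the 7 myeloid markers summed to 0.862 and 1.74 RPKM, with 4 and 3 of the 7 at 0. From expanded cells to plasmablasts the log2 difference was 1.29 (SE 0.43), past the F-test (adjusted p 0.021) but not DE (adjusted p 0.0908). That difference was DE under 5 of 24 alternatives, with adjusted p from 0.00626 to 0.325. Lamins A and C are splice forms of this gene and were counted together.

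Lmnb1 (Entrez 16906; chromosome 18, 56707813 to 56753424, mm10) was the most abundant lamin transcript per length in every library. Its level was 29.2 and 30.5 RPKM (naive), 45.4 and 39.3 (3 h), 48.0 and 45.1 (10 h), 140 and 166 (33 h), 171 and 165 (expanded) and 65.8 and 65.0 (plasmablasts). The 4 libraries of 33 h and expanded cells lay above all others, the 2 stages overlapped each other, and plasmablasts lay between them and the 10 h cells. Lmnb1 rose by 1.72 on the log2 scale from 10 h to 33 h (SE 0.10, adjusted p 3.5e-07), before the first division. It fell by 1.36 from expanded cells to plasmablasts (SE 0.10, adjusted p 4.95e-06). Both calls were kept in all 24 alternatives. Plasmablasts still held more Lmnb1 than naive cells, by 1.13 (SE 0.10, adjusted p 3.31e-05).

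Lmnb2 (Entrez 16907; chr10:80901363-80918245, mm10) had its highest mean at an earlier stage than Lmnb1. It had 6.05 and 6.19 RPKM (naive), 11.4 and 14.5 (3 h), 20.8 and 20.6 (10 h), 17.7 and 17.1 (33 h), 11.7 and 13.2 (expanded) and 7.71 and 7.74 (plasmablasts). The 10 h libraries were the highest and the naive libraries the lowest, and only the 3 h and expanded values overlapped among neighbours in the order of levels. The rise from naive to 3 h was 1.09 (SE 0.12, adjusted p 0.000304). The further step to 10 h, 0.67 (SE 0.11), passed the F-test (adjusted p 0.000196) but was not DE (adjusted p 0.224). The steps down to expanded cells (-0.48, SE 0.11, F-test adjusted p 0.00425) and to plasmablasts (-0.69, SE 0.12, F-test adjusted p 0.000214) also passed the F-test alone. The step from 10 h to 33 h (-0.25, SE 0.11) passed neither test (F-test adjusted p 0.0826).

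The balance among the lamins was computed as each gene's share of the summed RPKM of the 3 lamin genes. Lmnb1 held 81.6% (both naive libraries), 75.3% and 63.7% (3 h), 69.3% and 68.4% (10 h), 88.6% and 90.4% (33 h), 93.4% and 92.4% (expanded), and 88.7% and 88.3% (plasmablasts). Lmna held 1.55% and 1.85% in naive cells, 5.81% and 12.7% at 3 h, at most 0.626% in the 6 libraries from 10 h to expanded cells, and 0.921% and 1.21% in plasmablasts. Lmnb2 reached its highest share at 10 h, 30.1% and 31.2%, and its lowest in expanded cells, 6.40% and 7.40%. The summed lamin level itself went from 35.8 and 37.4 RPKM in naive cells to 183 and 178 in expanded cells and back to 74.2 and 73.6 in plasmablasts. These shares describe transcripts per length and no test was run on them.

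**Figure D2:**
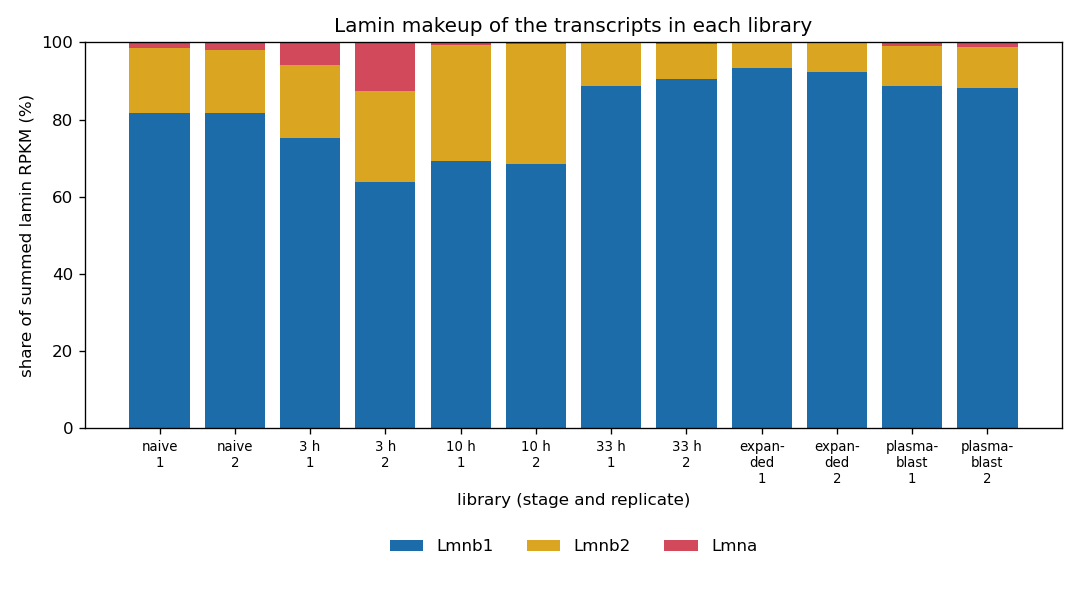
Share (%) of Lmnb1, Lmnb2 and Lmna in the summed lamin RPKM of each of the 12 libraries (1 bar per library, linear axis from 0 to 100). Lmna is seen mainly in the 3 h bars (5.81% and 12.7%), Lmnb2 is widest at 10 h, and Lmnb1 takes at least 88.3% in all libraries from 33 h on.

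Among the inner membrane proteins, Lbr (Entrez 98386; chr1:181815315-181842401, mm10) had replicates far apart at 3 h. It had 70.4 and 63.3 RPKM (naive), 86.6 and 55.1 (3 h), 51.1 and 54.5 (10 h), 85.7 and 96.8 (33 h), 106 and 124 (expanded) and 85.2 and 93.0 (plasmablasts). Expanded cells were the highest and 10 h cells the lowest, with neither overlapping its neighbour in the order, while the 2 libraries at 3 h spanned both naive values. The log2 difference from 10 h to 33 h was 0.79 (SE 0.17), which passed the F-test (adjusted p 0.00283) but was not DE (adjusted p 0.203). It was DE under 4 of 24 alternatives, among them those without either 3 h library. From naive to 3 h the difference was 0.08 (SE 0.17, F-test adjusted p 0.682), and its sign depended on which 3 h library was kept.

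Emd (Entrez 13726; chrX:74254674-74261563, mm10), a LEM-domain protein, had the narrowest range of the 9, with a ratio of 1.53 between its highest and lowest stage means. It had 54.4 and 53.7 RPKM (naive), 81.7 and 82.8 (3 h), 83.3 and 79.1 (10 h), 70.3 and 70.7 (33 h), 59.8 and 62.2 (expanded) and 53.7 and 54.1 (plasmablasts). Plasmablasts overlapped naive cells, and all libraries between lay higher. The step up at 3 h was 0.61 (SE 0.08, F-test adjusted p 1.21e-05), not DE (adjusted p 0.309). The steps down to 33 h (-0.20, SE 0.08) and to expanded cells (-0.21, SE 0.08) passed the F-test narrowly (adjusted p 0.0446 and 0.0475), and the step to plasmablasts did not (-0.18, SE 0.08, adjusted p 0.0669). The difference between naive cells and plasmablasts was -0.0028 (SE 0.08, F-test adjusted p 0.978).

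Tmpo (Entrez 21917; chr10:91147571-91181752, mm10) encodes several LAP2 isoforms, which were counted together. It had 16.0 and 17.5 RPKM (naive), 21.4 and 23.0 (3 h), 27.8 and 25.3 (10 h), 46.2 and 50.3 (33 h), 42.2 and 39.1 (expanded) and 33.9 and 33.5 (plasmablasts). No 2 stages that were neighbours in the order of levels overlapped. Tmpo passed the F-test at all 5 transitions, upward at the first 3 and downward at the last 2. It was DE at 1 of them, from 10 h to 33 h (0.86, SE 0.09, adjusted p 0.00822). That call was lost without 10 h replicate 2 (adjusted p 0.0907) and without 33 h replicate 2 (adjusted p 0.0543). From naive cells to plasmablasts the rise was 1.01 (SE 0.09, adjusted p 0.000122).

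Lmnb1, Tmpo and Lbr were highest at 33 h or in expanded cells, so they were set beside 8 division genes (Mki67, Top2a, Cdk1, Ccnb1, Plk1, Aurkb, Pcna and Mcm2). The division genes summed to 100.1 and 102 RPKM (naive), 150.1 and 144 (3 h), 192 and 162 (10 h), 766 and 973 (33 h), 881 and 883 (expanded) and 805 and 795 (plasmablasts). All 8 were DE upward from 10 h to 33 h, beside 10.0% of all genes tested. From expanded cells to plasmablasts 0 of the 8 were DE, beside 14.0% up and 12.1% down of all genes tested. Their median log2 fold change was -0.22, while Lmnb1 fell by 1.36. Mki67 (145.5 to 176 RPKM) and Cdk1 (45.6 to 51.3) had higher means in plasmablasts. Plk1 (104 to 70.9), Top2a, Ccnb1, Aurkb, Pcna and Mcm2 had lower ones. The steps of Tmpo (-0.27, SE 0.09) and Lbr (-0.37, SE 0.17, F-test adjusted p 0.0842) at that transition were smaller than that of Lmnb1, which was not tested as a difference between genes. Whether the share of dividing cells sets the level of any of these 3 genes was not tested.

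**Figure D3:**
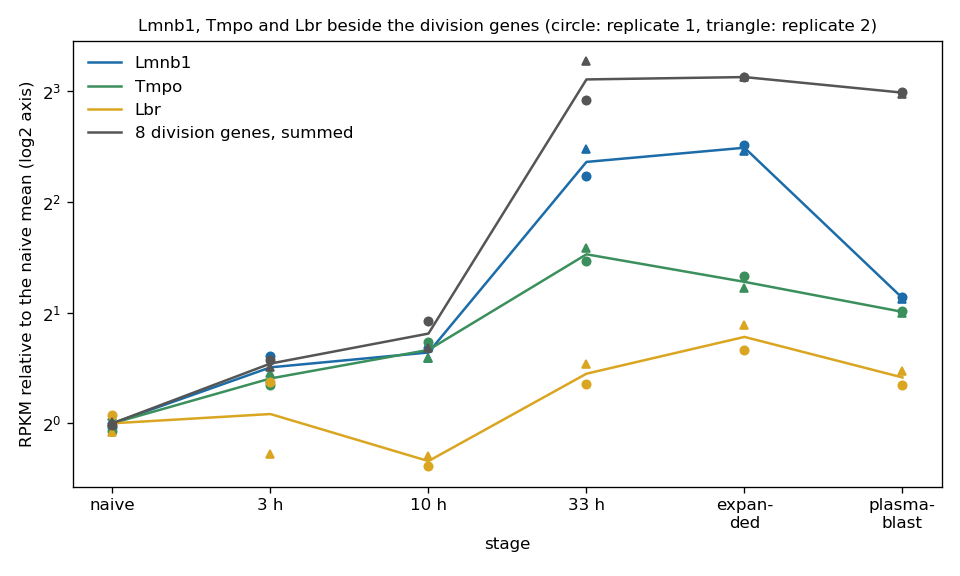
RPKM of Lmnb1, Tmpo, Lbr and the sum of 8 division genes, each divided by its own naive mean (log2 axis), with a circle for replicate 1, a triangle for replicate 2 and lines through the means. From expanded cells to plasmablasts the Lmnb1 line drops further than the other 3.

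Sun2 (Entrez 223697; chr15:79724068-79742536, mm10) showed the largest lasting fall. It had 163 and 151 RPKM (naive), 282 and 210 (3 h), 43.7 and 43.5 (10 h), 30.7 and 28.5 (33 h), 32.6 and 32.0 (expanded) and 41.6 and 39.6 (plasmablasts). The 4 naive and 3 h libraries lay at 151 RPKM or above, and the other 8 at 43.7 or below. Sun2 fell by 2.49 on the log2 scale from 3 h to 10 h (SE 0.11, adjusted p 3.18e-08), a call made in all 24 alternatives. The log2 difference from naive to 3 h was 0.64 (SE 0.11), past the F-test (adjusted p 0.000209) but not DE (adjusted p 0.232). From naive cells to plasmablasts Sun2 fell by 1.95 (SE 0.11, adjusted p 5.15e-08). Among the genes tested, its RPKM stood at percentile 97.1 in naive cells and 77.8 at 33 h.

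Sun1 (Entrez 77053; chr5:139200564-139249839, mm10), its paralog, was lower in every library. It had 8.54 and 7.96 RPKM (naive), 11.4 and 8.83 (3 h), 5.50 and 5.56 (10 h), 6.43 and 5.84 (33 h), 5.75 and 5.21 (expanded) and 8.31 and 8.29 (plasmablasts). The naive and plasmablast values overlapped, and both lay above all libraries from 10 h to expanded cells. Sun1 fell by 0.87 from 3 h to 10 h (SE 0.12, adjusted p 0.0186), and from expanded cells to plasmablasts its rise of 0.60 (SE 0.12) passed the F-test (adjusted p 0.00102) but was not DE (adjusted p 0.519). The fall was called in 19 of 24 alternatives, and without 3 h replicate 1 it was -0.67 with an adjusted p of 0.231. The call was also lost without 10 h replicate 1 (adjusted p 0.0648) and without 10 h replicate 2 (adjusted p 0.0508). The ratio of Sun2 to Sun1 RPKM was 19.1 and 19.0 (naive), 24.7 and 23.7 (3 h), 7.95 and 7.82 (10 h), and 4.77 to 6.15 in the 6 later libraries.

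Banf1 (Entrez 23825; chr19:5364633-5366876, mm10) was the most abundant of the 9 per length from 10 h on. It had 114 and 115 RPKM (naive), 172 and 194 (3 h), 341 and 325 (10 h), 212 and 258 (33 h), 205 and 207 (expanded) and 157 and 168 (plasmablasts). No neighbouring stages in the order of levels overlapped, and the 10 h libraries stood above all others. Banf1 rose by 0.86 from 3 h to 10 h (SE 0.10, adjusted p 0.00859), a call lost without 3 h replicate 1 (adjusted p 0.0515) and with DESeq2's Wald test (adjusted p 0.285). The steps up to 3 h (0.68, SE 0.10), down to 33 h (-0.50, SE 0.10) and down to plasmablasts (-0.35, SE 0.10) passed the F-test (adjusted p 4.46e-05, 0.00124 and 0.00986) and were not DE.

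**Figure D4:**
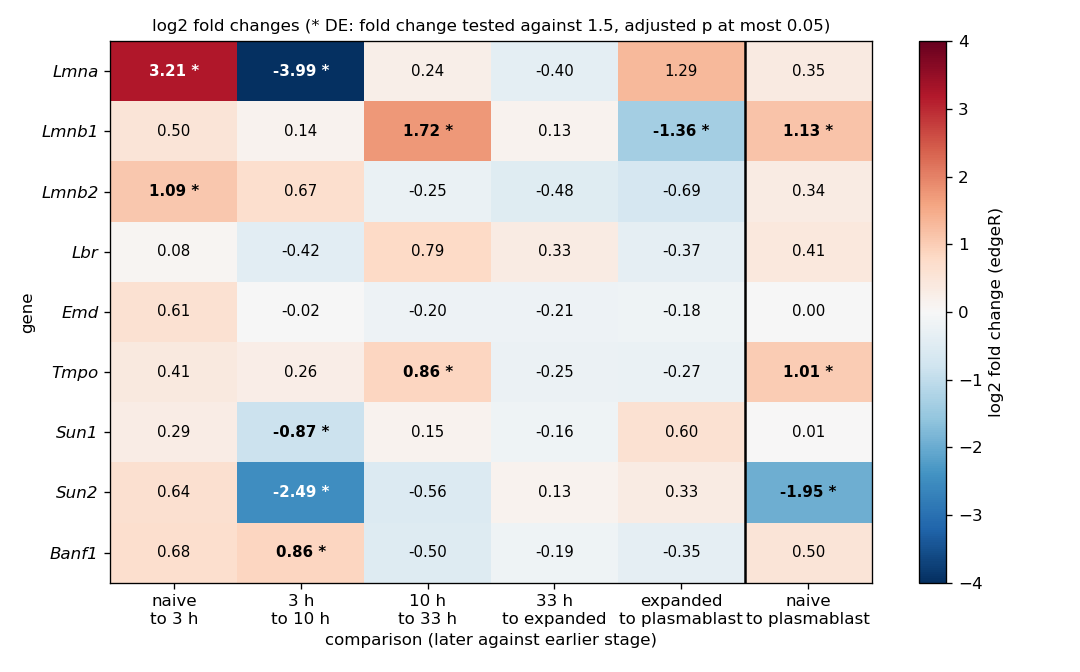
log2 fold change of each gene at the 5 transitions and, right of the line, from naive cells to plasmablasts, in colour and as a number, with * and bold type for DE genes. The 9 DE calls at the 5 transitions fall on 7 genes, and the column from 33 h to expanded cells holds none.

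The end of the series was also compared directly with its start. From naive cells to plasmablasts 2 of the 9 rose (Lmnb1 and Tmpo; background 26.5% of genes tested) and 1 fell (Sun2; background 23.3%). Of the other 6, Lmnb2 (0.34), Lbr (0.41) and Banf1 (0.50) were higher in plasmablasts by the F-test alone (adjusted p 0.02, 0.0432 and 0.000507), and Lmna (0.35), Emd (-0.0028) and Sun1 (0.0088) passed neither test. Comparisons that use the naive libraries share them, and those libraries carry the myeloid and erythroid RNA described above. The part of that RNA in the values of the 9 genes was not tested.

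For each gene, the 2 other genes with the most similar course were found by the root mean square (RMS) difference of their centred log2 RPKM over the 6 stage means, among 8828 genes whose log2 CPM averaged 3 or more. These are descriptions of 6 means and carry no test. The closest to Lmna was Cd69 (RMS 0.392), an early activation marker whose protein was a gate for the activated cells, followed by Tmem26 (0.485), and 4 genes in all were within 0.5. The closest to Lmnb1 were Mcm4, a subunit of the replicative helicase (0.213), and Phf19 (0.219), with 94 genes within 0.5. Sun2 had 38 genes within 0.5, led by Pou6f1 and Ski (both 0.239). Each of the other 6 had more genes within 0.5, from 1428 (Lmnb2) to 4024 (Emd). Their levels also varied less, with a ratio of highest to lowest stage mean of 1.53 to 3.38. That ratio was 5.61 for Lmnb1, 8.31 for Sun2 and 17.6 for Lmna. A gene that varies little lies near any gene that varies little, so these numbers do not measure a shared course. The nearest were Ttc27 (0.106) and Psmc5 (0.110) for Lmnb2, Chordc1 (0.0872) and Pfdn6 (0.0914) for Banf1, Paxip1 (0.117) and Rmdn3 (0.125) for Tmpo, and Ankrd54 (0.124) and Ccar1 (0.131) for Lbr. They were Ube3a (0.0255) and Pdcd2l (0.0314) for Emd, whose range is narrow, and Clcn4 (0.0643) and C2cd2 (0.0819) for Sun1. Within the 9, Lmnb2 and Banf1 were closest (0.219), then Emd and Banf1 (0.338) and Lbr and Tmpo (0.370), and Lmnb1 and Sun2 were farthest apart (1.99).

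Promoter sequences from RefSeq (GRCm38.p6) were used for 8 of the 9 genes (not Lmnb1), in 13 windows, and the 250 bases before each transcript start were searched for 6 kinds of motif on both strands. Of 32851 such windows in all, 1.86% held an E2F word (TTTCCCGC, TTTGGCGC, TTTCGCGC or TTTGCCGC), 17.1% a cell cycle homology (CHR) word (TTTGAA or TTCGAA), 33.8% CCAAT, 6.02% the E-box CACGTG, 1.55% the cAMP response element TGACGTCA and 32.7% the Sp1 word GGGCGG. Of the 13 windows of these genes, 2 held an E2F word (Tmpo at its second start, and Banf1, where it overlaps an Sp1 word), 3 a CHR word (Lbr, Sun2 and the second Tmpo window), 8 CCAAT (none of Lmnb2), 9 the Sp1 word, and 0 the E-box or the cAMP response element. The starts of the E2F windows of Tmpo and Banf1 lie 88 and 85 bases from the nearest transcript start of the gene in GENCODE, and that of the second Sun1 window 2891 bases, whereas those of the other 10 windows lie 0 to 37 bases away. Windows of the same gene are not independent. Tmpo and Lbr were at their height from 33 h on, Sun2 fell after 3 h and Lmnb2 had its highest mean at 10 h. For this contrast of courses, the first windows of these 4 genes are shown. They lie on the minus strand at chr10:91171620-91171869 (Tmpo, first start), chr1:181842402-181842651 (Lbr), chr15:79742537-79742786 (Sun2) and chr10:80918246-80918495 (Lmnb2), are written 5′ to 3′ toward the start, and capitals mark any of the motifs.
Tmpo: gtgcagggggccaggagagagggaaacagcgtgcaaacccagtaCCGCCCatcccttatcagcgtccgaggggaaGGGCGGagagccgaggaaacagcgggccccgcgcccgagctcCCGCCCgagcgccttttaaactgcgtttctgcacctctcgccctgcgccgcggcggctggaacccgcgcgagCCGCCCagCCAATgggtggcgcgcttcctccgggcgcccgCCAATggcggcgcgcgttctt
Lbr: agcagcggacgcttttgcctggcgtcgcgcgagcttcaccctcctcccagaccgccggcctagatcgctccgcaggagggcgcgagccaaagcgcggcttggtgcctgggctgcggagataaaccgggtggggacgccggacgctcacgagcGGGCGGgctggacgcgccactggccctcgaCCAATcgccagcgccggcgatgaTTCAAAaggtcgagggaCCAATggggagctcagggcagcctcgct
Sun2: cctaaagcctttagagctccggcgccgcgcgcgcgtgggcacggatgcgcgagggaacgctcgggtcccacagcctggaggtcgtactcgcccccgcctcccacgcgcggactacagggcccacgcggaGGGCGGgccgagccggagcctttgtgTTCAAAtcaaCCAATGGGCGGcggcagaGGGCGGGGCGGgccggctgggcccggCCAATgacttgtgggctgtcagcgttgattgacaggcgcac
Lmnb2: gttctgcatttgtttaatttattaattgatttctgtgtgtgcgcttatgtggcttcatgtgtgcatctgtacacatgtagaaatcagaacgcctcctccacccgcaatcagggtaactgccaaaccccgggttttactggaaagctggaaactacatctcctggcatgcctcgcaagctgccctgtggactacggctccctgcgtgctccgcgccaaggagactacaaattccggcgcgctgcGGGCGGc

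CCAAT began 68 and 28 bases before the Lbr start, 53 and 21 before the first Tmpo start, and 85 and 41 before the Sun2 start. Lbr and Sun2, whose courses differ, both held a pair of CCAAT words and a CHR word within 95 bases of the start. The Lmnb2 window held 1 match, an Sp1 word 7 bases before the start. A match is a description of letters and not a bound site.

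The 9 genes work with other proteins of the envelope, so 66 companion genes in 7 lists were examined, of which 60 were tested. Over the 5 transitions 57 DE calls were made among them. In order, 9 rose and 10 fell, 9 rose and 5 fell, 12 rose and 1 fell, 2 rose and 1 fell, and 2 rose and 6 fell. From naive to 3 h that was 15% up and 16.7% down, beside 20.9% and 24.2% of all genes tested, and from 3 h to 10 h 15% and 8.33%, beside 17.2% and 13.3%. From 10 h to 33 h 20% rose and 1.67% fell, beside 10.0% and 4.41%. The 12 genes that rose there included 3 of the division genes above, Cdk1, Ccnb1 and Plk1, and of the 57 companion genes other than these 3, 15.8% rose. From 33 h to expanded cells 3.33% rose and 1.67% fell, beside 6.87% and 3.56%, and from expanded cells to plasmablasts 3.33% and 10%, beside 14.0% and 12.1%. Except for the rises from 10 h to 33 h, each share called was below that of all genes tested. Several gaps were small, such as 15% beside 17.2% and 10% beside 12.1%, where a single call is 1.67%. No test was run on these shares.

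The LINC partners are the nesprins and related proteins that join SUN proteins to the cytoskeleton, and 6 of 9 were tested. With so few genes a single call is 16.7% of the list. From naive to 3 h 2 rose and 1 fell, beside 20.9% and 24.2% of all genes tested. At the step to 10 h 0 rose and 1 fell, beside 17.2% and 13.3%. The step from 33 h to expanded cells also had 0 up and 1 down, beside 6.87% and 3.56%. So did that from expanded cells to plasmablasts, beside 14.0% and 12.1%. Syne2 (nesprin-2) fell from naive to 3 h (-2.58, SE 0.30, adjusted p 2.92e-05), while Tmem201 and Syne4 rose, Syne4 on mean counts of 1.5 and 8.5. Syne3 (nesprin-3) fell from 3 h to 10 h, as Sun2 did (-0.99, SE 0.17, adjusted p 0.0154). From 10 h to 33 h 3 of 6 rose and 0 fell, beside 10.0% and 4.41% of all genes tested, led by Syne3 (1.61, SE 0.17, adjusted p 0.000123), where Sun2 did not (-0.56). Kash5 was called lower in expanded cells than at 33 h on mean counts of 2 and 33.5, and Syne3 fell again in plasmablasts (-0.95, SE 0.17, adjusted p 0.0257).

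Of 11 tested genes for other LEM-domain, torsin and inner membrane proteins, Nrm (nurim) stood out by its course. Its stage means were 119 RPKM in naive cells, 46.0 at 3 h and 19.8 at 10 h, and it fell at both steps (-1.37, SE 0.10, adjusted p 2.5e-06, and -1.22, SE 0.10, adjusted p 3.63e-05). It then rose from 10 h to 33 h and fell from expanded cells to plasmablasts (-0.78, SE 0.10, adjusted p 0.042). Tor1b, a torsin ATPase, rose at 3 h (1.08, SE 0.10, adjusted p 0.000132) and in plasmablasts (0.86, SE 0.10, adjusted p 0.00934). Ankle1, a LEM-domain nuclease, rose the most at 33 h, from a mean count of 8.5 to 186 (4.34, SE 0.40, adjusted p 1e-06), and Lemd2, which helps to recruit the ESCRT machinery to the envelope, fell there (-0.97, SE 0.13, adjusted p 0.0116).

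The 5 enzymes that process the farnesylated tails of lamins were all tested. Rce1, a protease of prenylated proteins, rose from naive to 3 h (1.30, SE 0.09, adjusted p 1.92e-06), and Zmpste24, which matures prelamin A, rose from expanded cells to plasmablasts (1.17, SE 0.08, adjusted p 1.03e-05), from a mean of 42.0 to 94.5 RPKM. No other call was made among these 5 at any of the 5 transitions.

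Kinases, phosphatases and a caspase that act on the lamina made up the longest list, with 16 of 16 tested. From naive to 3 h 3 rose and 5 fell (18.8% and 31.2%, beside 20.9% and 24.2% of all genes tested), with Ppp2r2a, a regulatory subunit of protein phosphatase PP2A, the largest rise (1.19, SE 0.08, adjusted p 1.99e-06) and Casp6, the caspase that cleaves lamin A, the largest fall (-1.93, SE 0.13, adjusted p 2.68e-07). From 3 h to 10 h 4 rose and 3 fell (25% and 18.8%, beside 17.2% and 13.3%), with Ccnb1 (2.16, SE 0.63) and Akap8l (-1.24, SE 0.20) at the ends. From 10 h to 33 h 5 rose and 0 fell (31.2% up, beside 10.0%, and 4.41% down over all genes). These were Plk1 (5.07, SE 0.30, adjusted p 1.84e-06), Ccnb2, Cdk1, Ccnb1 and Prkca, of which Cdk1 with its B cyclins phosphorylates lamins at mitosis, and Plk1, Cdk1 and Ccnb1 are also division genes of the list above. From 33 h to expanded cells 2 rose and 0 fell (12.5% up, beside 6.87%), led by Ccnb2 (1.52, SE 0.20, adjusted p 0.00195). In plasmablasts 3 fell (18.8%, beside 12.1%) and 0 rose (beside 14.0%), led by Prkcb (-2.47, SE 0.10, adjusted p 7.55e-09), a protein kinase C that can also phosphorylate lamin B1. Its mean went from 115 to 20.8 RPKM, at the same transition at which Lmnb1 fell.

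Of 10 heterochromatin partners, all tested, the histone methyltransferase gene Suv39h2 rose from naive to 3 h (2.51, SE 0.19, adjusted p 2.96e-07) and Ehmt2 fell (-1.18, SE 0.11, adjusted p 4.49e-05). Cbx5, which encodes HP1α, a partner of the lamin B receptor, rose from 3 h to 10 h (1.56, SE 0.09, adjusted p 7.97e-07) and fell from expanded cells to plasmablasts (-0.99, SE 0.09, adjusted p 0.000601). Suv39h1 rose from 10 h to 33 h (1.01, SE 0.09, adjusted p 0.000699).

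Of 9 tested genes for resealing of the envelope by ESCRT-III, 0 were DE at the 5 transitions in the test for a fold change over 1.5, beside 20.9%, 17.2%, 10.0%, 6.87% and 14.0% of all genes tested that rose and 24.2%, 13.3%, 4.41%, 3.56% and 12.1% that fell. By the F-test, 6 rose and 0 fell from naive to 3 h (background 34.5% and 36.2%), 1 rose and 7 fell from 3 h to 10 h (32.0% and 30.0%), and 0 rose and 9 fell from 10 h to 33 h (23.1% and 22.2%). From 33 h to expanded cells 2 rose and 2 fell (18.5% and 20.8%), and in plasmablasts 3 rose and 0 fell (27.2% and 29.6%). Their median log2 fold changes in this order were 0.39, -0.26, -0.36, 0.12 and 0.16, beside -0.03, 0.02, -0.02, -0.02 and -0.04 over all genes tested. Among sterol reductases related to Lbr, which itself has sterol reductase activity, Tm7sf2 fell from naive to 3 h (-2.55, SE 0.32, adjusted p 2.03e-05) and rose to 10 h (2.36, SE 0.32, adjusted p 8.88e-05) and to 33 h (1.26, SE 0.20, adjusted p 0.00536). Its mean count at 3 h was 14.

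Reads that fall where 2 genes overlap cannot be assigned without strand, and the strand setting of the counting is not given in the sources used here. The deposited table gives a length for each counted gene model, but not its exons. The overlaps were therefore measured in GENCODE, whose models are longer (for Banf1 1496 bases against 821 counted, for Emd 2517 against 1303 and for Tmpo 10998 against 8127), so how much of each overlap lies within the counted exons is not known. In GENCODE 6 of the 9 genes share exon bases with another gene. Banf1 shares the most of its length, 428 of 1496 exon bases with Eif1ad on the opposite strand, and Emd shares 343 of 2517 with a processed pseudogene on its own strand. Lbr shares 440 of 4761 with Dnah14 on the opposite strand and 69 with an rRNA gene, Gm26004, on its own strand. For Tmpo, Sun1 and Sun2 the overlap with a noncoding gene is 244 of 10998, 302 of 7596 and 147 of 5420 bases.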

How the data were processed

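RNA-Seq of 12 libraries was used, 2 for each of 6 stages grouped by the sample labels. The authors made TruSeq libraries, read them on an Illumina NextSeq (CASAVA 1.8.2 in the processing notes), mapped the pairs to mm10 using Rsubread and summarised them per Entrez gene using featureCounts. What was deposited is raw counts, neither normalized nor filtered, beside each gene's exon length.

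From these counts 15 mitochondrial, 33 ribosomal RNA and 248 variable immunoglobulin genes and 1904 IDs without annotation were removed. Genes on X and Y, which the study removed, were kept because Emd is X-linked. This left 24979 genes, and edgeR's filterByExpr (minimum count 10) kept 13195. The tools were edgeR 4.0.16 with limma 3.58.1 in R 4.3.3, and DESeq2 1.42.0 as an alternative. After TMM scaling, all 12 libraries entered 1 one-way layout with robust dispersions, in which the stages share their estimate of variation. DE was tested with glmTreat (fold change over 1.5), and a change of any size with the quasi-likelihood F-test. Both were adjusted over all genes tested by Benjamini-Hochberg at 0.05. RPKM used TMM-scaled library sizes. The SE is that of the log2 fold change in the quasi-likelihood fit. The scripts were tested on simulated data.

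All 9 genes are given, with, from each companion list and transition, the DE gene with the largest rise and that with the largest fall, and the 2 genes most similar in course to each of the 9. Other companion genes were named after their values were seen. The 9 genes, lists, tests and alternatives were chosen with earlier results of these data known. The alternatives were other scalings (DESeq2's size factors, library size alone), DESeq2's Wald test, other filters on low counts, other dispersion settings, a replicate block, only the 4 libraries compared, other gene removals, thinning to the smallest total and leaving out each library in turn. Hi-C data were not used here. A companion gene that the rule names is not reported here.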

Additional observations from a re-analysis of the deposited data

How the results depend on the processing

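Among the fold changes of the 9 genes over 6 comparisons, 1242 alternative values kept their direction and their side of the threshold, 14 gained a call, 9 lost one and 25 changed sign, all 25 for differences that were not called. The calls of Lmna, Lmnb1, Lmnb2 and Sun2 held in all 24 alternatives. Sun1 from 3 h to 10 h was not called with library size alone (adjusted p 0.702) or with only the 4 libraries compared (adjusted p 0.0656). Library size alone in place of TMM shifted the median of all genes by -0.21, 0.33, -0.06, -0.01 and -0.33 over the 5 transitions and by -0.27 from naive to plasmablast.

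Leaving out 1 library gave 2 (without 3 h replicate 1) to 5 DE genes from 3 h to 10 h and 1 (without replicate 2 of 10 h or of 33 h) to 3 from 10 h to 33 h. From expanded to plasmablast the count was 1 to 2 when 1 library was left out (2 without either 3 h library) and 2 with library size alone, no filter, only the 4 libraries compared or thinning. The added gene was Lmnb2 with library size alone and Lmna in the others.

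Sign changes of uncalled differences were as follows. With library size alone Lbr from naive to 3 h was -0.14, Emd from 3 h to 10 h 0.31, Sun1 from naive to plasmablast -0.27 and Sun2 from expanded to plasmablast -0.0049. With no filter Emd from 3 h to 10 h was 0.000256 and Sun1 from naive to plasmablast -0.031. With no genes removed they were 0.0067 and -0.0016, with only the 4 libraries compared Sun1 was -0.041, and with at least 10 counts in every library Emd from naive to plasmablast was 0.00017. Leaving out 1 library gave Lmna from 10 h to 33 h -0.087 to 0.61, Lbr from naive to 3 h -0.27 to 0.35, Emd from 3 h to 10 h -0.054 to 0.024 and from naive to plasmablast -0.047 to 0.0067, and Sun1 from naive to plasmablast -0.037 to 0.060. The causes were not tested.

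The difference between replicates 1 and 2 was correlated over genes between stages, and 0 of 15 pairs of stages were over 0.1. The range was -0.136 (3 h and 10 h) to 0.0968 (expanded cells and plasmablasts). Such correlations cannot tell whether stages shared a mouse or a culture, so pairing was left undecided. A replicate block left the counts of DE genes at 2, 4, 2, 0 and 1, and 3 from naive to plasmablast. With 2 replicates a stage and 34 to 86 counts outside 3 h, small differences of Lmna are not resolved.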
